A study of Mus musculus with 3 samples.

Results

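CGP 57380, an inhibitor of the MNK kinases, was compared with its vehicle DMSO in pancreatic islets of mice on a high-fat diet. Each side was 1 RNA-seq library. The HFD_CGP islets came from male C57BL/6 mice that ate a high-fat diet and received CGP 57380 by oral gavage for 1 month. The HFD_DMSO islets came from male C57BL/6 mice on the same diet that received DMSO by gavage for the same time. The ND library, from male C57BL/6 mice on the diet labelled ND that also received DMSO, is used only for side-by-side values. The label speaks of mice of 4 month without saying whether that is an age or a feeding time, and it does not say how many animals went into a library. Every gene in the deposited table of this pair was taken, 22208 of the 24119 genes in the tables of the series. A level is given in normalized counts, which are reads scaled so that both libraries of the pair share 1 size. The difference is log2((HFD_CGP + 1)/(HFD_DMSO + 1)), called the log2 ratio, and the 11060 genes with 100 or more normalized counts in the higher library are described first. Where a pair of levels is given, HFD_CGP comes before HFD_DMSO, in normalized counts unless reads are named, and the log2 ratio follows.

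MNK1 and MNK2 are kinases downstream of MAP kinases. They phosphorylate eIF4E, the protein that binds the cap of mRNAs at the start of translation. A pancreatic islet holds insulin-secreting beta cells, glucagon-secreting alpha cells and other endocrine cells, with blood vessels, resident macrophages and some stroma. It lies in exocrine tissue whose acinar cells make digestive enzymes and whose ducts carry them away, and isolated islets can bring some of that tissue along. In a bulk sample, fewer cells of a type and less RNA per cell cannot be told apart.

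The HFD_CGP library held 17623254 reads on genes and the HFD_DMSO library 16297356. Counting 0 reads of a gene allows up to 3, which is 2.30 normalized counts in HFD_CGP and 3.91 in HFD_DMSO. All 7 beta-cell markers had reads in both libraries, as did the markers of alpha, delta and PP cells, in keeping with the label of islets. The 5 acinar markers summed to 659 normalized counts in HFD_CGP and 35750 in HFD_DMSO, with Ptf1a at 0 in HFD_CGP. The 4 duct markers summed to 843 and 6353, the 4 stromal markers to 690 and 3420, and the 2 T-cell markers to 5.33 and 60.0. The 3 endothelial markers (4949 and 4367), the 3 macrophage markers (547 and 492) and the 3 B-cell markers (105 and 115) were close in sum. Reads of Lars2 set HFD_DMSO apart from both other libraries (39976, with 3184 in HFD_CGP and 2983 in ND), as did those of Gm23935 (103283, 9328 and 7059). With 1 library a side it cannot be left out, and no difference below has a replicate check. The intervals given are 95% exact intervals of the ratio of 2 read counts. They cover counting error only.

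Most genes differed little between the libraries, and the large differences were mostly toward lower levels in HFD_CGP. Over the 11060 genes the median log2 ratio was 0.10, with quartiles at -0.27 and 0.43. At least 2-fold higher in HFD_CGP were 419 genes (3.79%) and at least 2-fold lower 676 (6.11%). At least 4-fold higher were 31 genes and at least 4-fold lower 245. A log2 ratio of 5 or more was reached by 1 gene, Ighg2b, and one of -5 or less by 37 genes. The authors' deposited table called 311 of all 22208 genes higher (1.4%) and 1100 lower (4.95%) at an adjusted p under 0.05, of which 159 (1.44%) and 460 (4.16%) had 100 or more normalized counts. Among genes with 100 or more normalized counts, the smallest absolute value of the authors' deposited log2 fold change that was called was 1.25. The largest not called was 1.47. These calls rest on a spread that was assumed, since 1 library holds none: with an assumed dispersion of 0.16 in place of 0.04, edgeR's exact test called 9 higher and 162 lower. Scaled by library totals, 3364 genes were at least 2-fold higher and 343 lower, because that scaling moves all log2 ratios by 0.65. At the edge of the set lay Reg3b, just inside with 100.4 normalized counts in HFD_DMSO, and Fam120c, just outside with 99.7 in HFD_CGP.

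**Figure D1:**
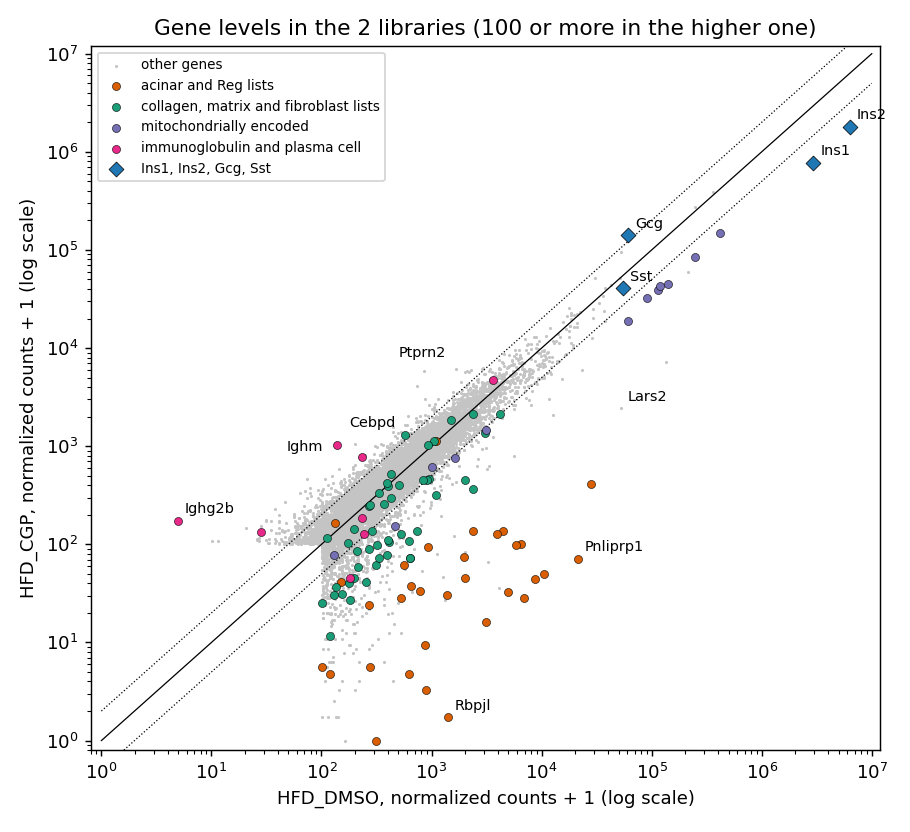
Each point is a gene with 100 or more normalized counts in the higher library, with its level in HFD_DMSO on the x axis and in HFD_CGP on the y axis, both plus 1 and on log scales. The solid line marks equal levels and the dotted lines 2-fold differences. Most acinar and Reg genes lie far below the lines, and the insulin genes and most mitochondrially encoded genes lie just below them.

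The direction differed with the level of the gene. Of the 105 genes with 10000 or more normalized counts, Gcg alone was at least 2-fold higher and 28 were at least 2-fold lower, with a median log2 ratio of -0.46 that turns positive with library totals. Between 100 and 300 normalized counts 192 of 3563 genes were higher and 391 lower by the same limit. The counts were nearly even from 300 to 1000, with 157 higher and 171 lower of 4845, and from 1000 to 10000, with 69 and 86 of 2547.

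A few abundant transcripts took a smaller share of the reads in HFD_CGP. Ins1 and Ins2, which encode insulin, made up 19.1% of the reads in HFD_CGP (Wilson 95% interval 19.07 to 19.11) and 43.5% in HFD_DMSO (43.48 to 43.52). The 31 genes of the mitochondrial genome made up 3.15% and 5.82%. Gcg, which encodes glucagon, went the other way, with 1.04% and 0.286%. The 81 cytosolic ribosomal protein genes took 3.07% of the reads in both libraries, although their median log2 ratio was -0.59, which turns to 0.06 with library totals. All 22050 genes outside the groups plotted took 73.6% in HFD_CGP and 45.9% in HFD_DMSO.

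**Figure D2:**
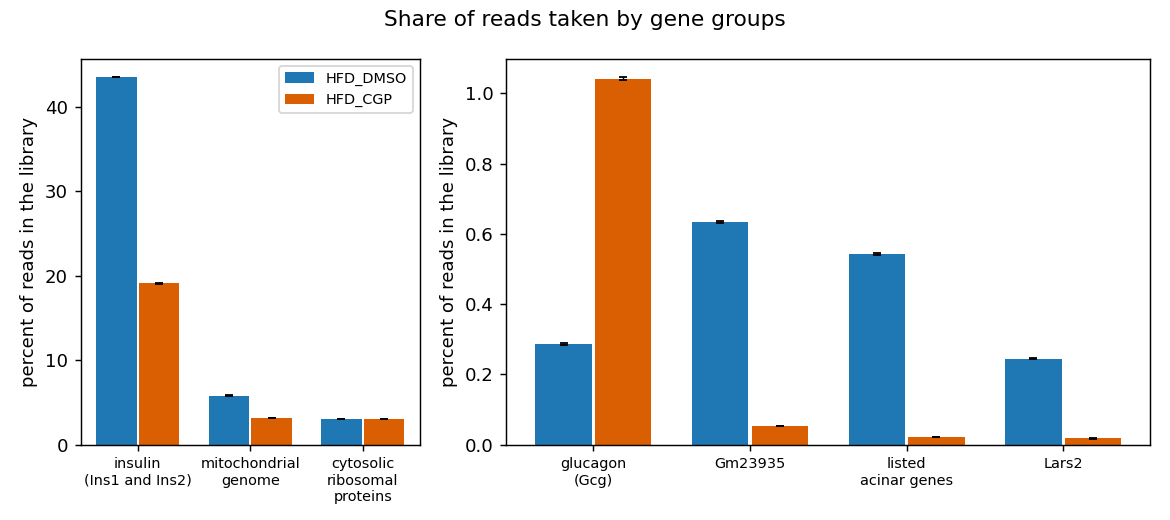
Bars give the percent of the reads of a library taken by a gene group, in HFD_DMSO and HFD_CGP, with Wilson 95% intervals of the counting error. The y axes of the panels differ. Insulin takes 43.5% in HFD_DMSO and 19.1% in HFD_CGP, and listed acinar genes 0.543% and 0.0226%.

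Genes of digestive enzymes were among the lowest in HFD_CGP, and Rbpjl had the lowest log2 ratio. Rbpjl (ENSMUSG00000017007, chromosome 2, 164403141 to 164415448 on GRCm38) encodes the acinar subunit of the PTF1 transcription complex. It had 1 read in HFD_CGP and 1077 in HFD_DMSO, a log2 ratio of -9.65 with a counting interval of -16.14 to -8.36. In ND it had 90 reads, between the other libraries. Pnliprp1, a relative of pancreatic lipase, had 70.5 normalized counts in HFD_CGP and 21358 in HFD_DMSO (-8.22). Cel, the lipase that splits cholesterol esters (ENSMUSG00000026818, chromosome 2, 28555795 to 28563403), had 31.4 and 4974 (-7.26). Among proteases, the carboxypeptidase Cpb1 had 42.9 and 8715 (-7.63) and the chymotrypsin precursor Ctrb1 had 409 and 28330 (-6.11). Spink1, an inhibitor of trypsin made by the same cells, had 3 reads against 689 (-8.10, interval -10.89 to -7.06). Erp27, an endoplasmic reticulum protein, and the trypsin gene Try10 had 0 reads in HFD_CGP and 241 and 239 in HFD_DMSO, so they were at least 137-fold and 135-fold lower. In the authors' deposited fold change, Erp27 (-11.35) and Try10 (-11.33) lay below Rbpjl (-10.63), so the order of these genes depends on the measure. The levels in the 2 libraries do not come near each other for any of these genes.

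By list, all 6 elastases and chymotrypsins were at least 2-fold lower, as were all 5 trypsins with their inhibitor, 6 lipases and amylases, 4 carboxypeptidases and nucleases, and 3 Reg genes, counting members with 100 or more normalized counts. The authors' deposited table called all 24 of these lower. Their medians ran from -4.67 for the elastases to -7.74 for the trypsins, or -7.08 with Try10 at its bound. Of 8 acinar transcription factors and granule proteins, 6 were at least 2-fold lower and 2 lay above 0. Over all genes at that level 6.11% were at least 2-fold lower and 4.16% were called lower. Rbpjl and Cel each overlap another gene on the opposite strand. Trypsins, amylases and Reg genes are families of near copies, so the split of reads within a family is uncertain. Beside the ND library the enzymes differed in another way: Cel had a log2 ratio of -1.70 in HFD_DMSO against ND and -8.88 in HFD_CGP against ND, and Cpb1 -0.92 and -8.47. These comparisons share libraries and are given side by side only.

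To show what the enzyme genes carry near their starts, the promoters of Cel and Rbpjl are printed from RefSeq (GRCm38.p6), from 250 bases before the start to 50 after it, 5′ to 3′. The Cel promoter lies at chr2:28563354-28563653 on the minus strand and the Rbpjl promoter at chr2:164402944-164403243 on the plus strand. Capitals mark CACCTG, an E-box of the kind bound by PTF1, and TTTCCC, the letters of its second half-site, on either strand.
Cel: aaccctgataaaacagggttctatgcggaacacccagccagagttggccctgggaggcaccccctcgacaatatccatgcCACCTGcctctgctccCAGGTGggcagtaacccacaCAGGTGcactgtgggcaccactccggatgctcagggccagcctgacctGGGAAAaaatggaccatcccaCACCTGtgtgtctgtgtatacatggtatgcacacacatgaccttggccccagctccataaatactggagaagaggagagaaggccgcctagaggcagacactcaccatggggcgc
Rbpjl: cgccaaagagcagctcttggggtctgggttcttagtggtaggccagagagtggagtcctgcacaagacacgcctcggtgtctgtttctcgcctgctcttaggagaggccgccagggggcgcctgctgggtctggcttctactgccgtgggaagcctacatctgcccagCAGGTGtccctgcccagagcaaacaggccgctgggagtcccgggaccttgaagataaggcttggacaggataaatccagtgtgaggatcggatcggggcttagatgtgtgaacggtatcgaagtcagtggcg
The Cel promoter holds 4 matches to CACCTG and 1 to TTTCCC, and the Rbpjl promoter holds 1 match to the E-box. Over the 32851 promoters of this length the E-box letters were present in 20.2% and TTTCCC in 25.2%. Of the 27 acinar genes that were at least 2-fold lower, 20 had a promoter in the RefSeq table, of which 12 held the E-box letters and 7 held the others. Bhlha15 and Tmed6, the listed acinar genes with a promoter in the table that were not 2-fold lower, both held the E-box letters too, and 0 of these 2 held TTTCCC. A match of letters is a description and not a bound site.

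Most listed genes of mucous epithelium were lower in the same library, and fewer of those of ducts. Of 8 mucous and secretory genes with 100 or more normalized counts, 7 were at least 2-fold lower, all 7 called in the authors' deposited table, with a median of -5.58. Over all genes at that level 6.11% were at least 2-fold lower and 4.16% were called lower. Muc6, a gel-forming mucin (ENSMUSG00000048191, chromosome 7, 141633456 to 141655319), had 4 reads in HFD_CGP and 167 in HFD_DMSO (-5.76, interval -8.04 to -4.77). The water channel Aqp5 had 1 read and 87 (-6.03, interval -12.53 to -4.69), and the trefoil peptide Tff2 had 4 and 343 (-6.79). Dmbt1, a secreted glycoprotein of mucosal surfaces, had 35.3 normalized counts and 4114 (-6.83). Muc6 was scarce in ND too, at 9 reads, while ND held 3648 reads of Dmbt1 and 686 of Tff2. Of 15 duct genes 6 were at least 2-fold lower, among them Sox9, a transcription factor of duct cells (20.7 and 270, -3.64), and Car2, a carbonic anhydrase (11.5 and 201, -4.01). The median of the duct list was -0.86, or -0.21 with library totals, under which 5 were at least 2-fold lower and 1 higher.

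**Figure D3:**
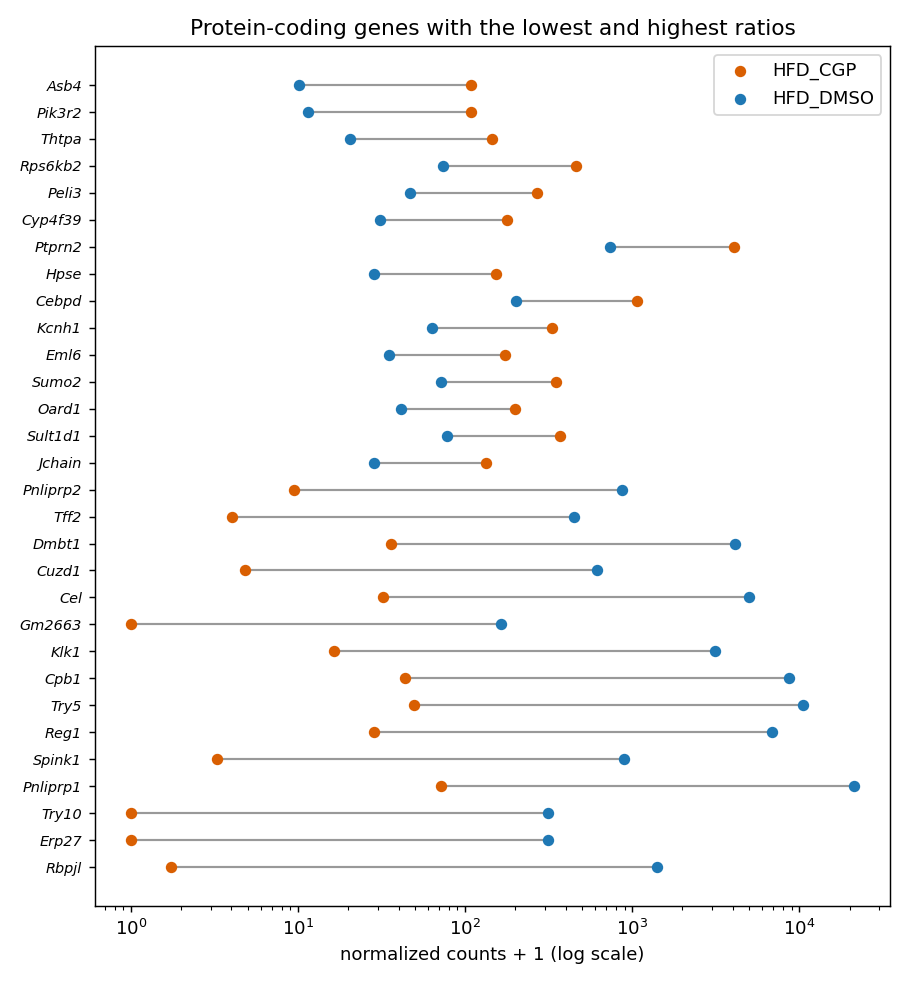
Points give the level of a gene plus 1, on a log scale, in HFD_CGP and HFD_DMSO, for the 15 protein-coding genes with the highest and the 15 with the lowest log2 ratio among those with 100 or more normalized counts. The lowest run from Rbpjl at -9.65 to Pnliprp2 at -6.53 and the highest from Jchain at 2.23 to Asb4 at 3.43.

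Collagen and matrix genes were lower in HFD_CGP for most of the listed members. Of 21 collagens 13 were at least 2-fold lower and 0 higher, 11 of them called in the authors' deposited table, with a median of -1.58. Over all genes with 100 or more normalized counts 6.11% were at least 2-fold lower and 4.16% were called lower. With library totals 10 of the 21 collagens were at least 2-fold lower and their median was -0.93. Col3a1, which encodes the type III collagen of loose connective tissue (ENSMUSG00000026043, chromosome 1, 45311538 to 45349706), had 365 normalized counts in HFD_CGP and 2400 in HFD_DMSO (-2.71, interval -2.87 to -2.57). Col6a1 of type VI collagen had 135 and 737 (-2.44) and Col5a2 of type V had 60.6 and 313 (-2.35). Chains of basement-membrane collagens differed among themselves. Col4a1 and Col4a2, the main chains of type IV, stood at 0.32 and 0.11, while Col4a5, another chain of that type, had 58.3 and 215 (-1.87) and Col18a1 of type XVIII had 89.0 and 267 (-1.58). These 4 genes were named after their values were seen. Of 13 genes of matrix remodelling 9 were at least 2-fold lower. They include the elastin gene Eln (77.5 and 391, -2.32), the membrane protease Mmp14 (107 and 626, -2.53) and the crosslinking enzyme Loxl1 (26.1 and 180, -2.74). Timp3, an inhibitor of such proteases named after its value was seen, was the 1 higher, at 1.18. The fibroblast list of 15 genes, which the matrix genes moved with, had 8 at least 2-fold lower and a median of -1.02, beside the stromal marker sums given above. The part of stromal cells in the matrix difference was not tested. Against ND, Col3a1 stood at 4.36 in HFD_DMSO and at 1.73 in HFD_CGP.

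The complement genes were among the lower immune genes. Of 9 measured, 7 were at least 2-fold lower, 6 of them called in the authors' deposited table, with a median of -1.86. Over all genes with 100 or more normalized counts 6.11% were at least 2-fold lower and 4.16% were called lower. With library totals 6 of the 9 complement genes were at least 2-fold lower, with a median of -1.22. C3, the central component (ENSMUSG00000024164, chromosome 17, 57203970 to 57228136), had 624 normalized counts in HFD_CGP and 3347 in HFD_DMSO (-2.42, interval -2.54 to -2.31). C4b, of the classical pathway, had 231 and 974 (-2.07), and the protease C1ra had 56.7 and 246 (-2.10). ND held 90 reads of C3 and 17 of C4b. Complement genes are also made by stromal cells, whose markers differed as given above, and their part was not tested.

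Interferon-stimulated genes were lower as a list, though by less. Such genes are switched on by interferons and slow viruses, and many carry a response element that the interferon-activated STAT and IRF factors bind. Of 22 measured, 9 were at least 2-fold lower and 0 higher, 8 of them called in the authors' deposited table, and 21 of 22 lay below 0. The median was -0.94, or -0.29 with library totals. Over all genes with 100 or more normalized counts 6.11% were at least 2-fold lower and 4.16% were called lower. Iigp1, an interferon-induced GTPase, had 55.2 normalized counts and 292 (-2.38). Irf7, a transcription factor that amplifies the response, had 184 and 605 (-1.71). Ifit3 and Ifit1, which encode proteins that recognise foreign RNA, had 125 and 529 (-2.07) and 110.4 and 409 (-1.88).

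The promoters of Ifit3 and Ifit1 are shown for the element by which interferon-stimulated genes are known. They lie at chr19:34583279-34583578 and chr19:34640639-34640938, both on the plus strand of GRCm38.p6 (RefSeq). Capitals mark the core of the interferon-stimulated response element, searched as 2 copies of GAAA with any 2 bases between them, on either strand.
Ifit3: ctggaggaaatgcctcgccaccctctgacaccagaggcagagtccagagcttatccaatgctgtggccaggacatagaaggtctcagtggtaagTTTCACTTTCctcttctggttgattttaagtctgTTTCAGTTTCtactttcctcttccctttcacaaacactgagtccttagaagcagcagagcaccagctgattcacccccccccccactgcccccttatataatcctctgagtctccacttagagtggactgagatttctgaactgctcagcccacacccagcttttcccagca
Ifit1: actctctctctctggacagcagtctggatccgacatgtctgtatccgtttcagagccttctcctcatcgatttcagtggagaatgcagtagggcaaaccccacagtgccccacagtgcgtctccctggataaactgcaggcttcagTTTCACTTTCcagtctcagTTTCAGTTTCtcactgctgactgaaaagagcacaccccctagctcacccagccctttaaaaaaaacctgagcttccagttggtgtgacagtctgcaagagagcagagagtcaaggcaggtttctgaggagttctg
Each promoter holds 2 matches, all on the opposite strand, so they read as 2 copies of TTTC here. The motif is present in 3.44% of all promoters of this length. It is present in 5 of the 8 promoters found for listed members at least 2-fold lower and in 7 of the 9 found for the listed members with 100 or more normalized counts that were not.

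Chemokines and antigen presentation divided by gene. Cxcl9 and Cxcl10, chemokines induced by interferon-gamma, had 1 read against 108 (-6.34, interval -12.84 to -5.01) and 26 against 135 (-3.08). The neutrophil chemokine Cxcl2 had 49.1 normalized counts against 132 (-1.41). Ccl28, a chemokine that draws antibody-secreting cells to mucosal tissue, was higher in HFD_CGP, with 584 normalized counts against 142 (2.03, interval 1.75 to 2.34). Of the 11 chemokines 6 were at least 2-fold lower and Ccl28 was the 1 higher. With library totals 2 of the 11 were lower and 2 higher by that limit, against 343 and 3364 of 11060 over all genes. The chemokine median moved from -1.10 to -0.45. Of 14 MHC and antigen-presentation genes only Ciita, the master regulator of MHC class II genes, was at least 2-fold lower (36 and 78 reads, -1.84). Over all genes 6.11% were at least 2-fold lower, so 1 of 14 is no result about this list. The class II gene H2-Aa stood at -0.76 and B2m, the light chain of class I, at -0.99, neither called in the authors' deposited table. The list median of -0.28 turns to 0.37 with library totals.

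A set of immunoglobulin-related transcripts rose, while the B-cell marker Ms4a1 did not. Ighm, the heavy chain of IgM (ENSMUSG00000076617, chromosome 12, 113418558 to 113422730), had 1020 normalized counts in HFD_CGP and 137 in HFD_DMSO (2.89, interval 2.61 to 3.20). Ighg2b, the heavy chain of IgG2b, had 226 reads against 3 (5.14, interval 3.90 to 7.76), and 0 in ND. The light chain Igkc had 774 normalized counts and 235 (1.72), and Jchain, which links IgM and IgA, had 133 and 27.4 (2.23). The authors' deposited table called these 4 higher. Igha, the heavy chain of IgA, was not among them, with 126 and 243 (-0.94). Mzb1, a marker of plasma cells, had 30 and 34 reads, and the B-cell marker Ms4a1 had 2 reads in HFD_CGP against 8 in HFD_DMSO. The syndecan Sdc1, another plasma cell marker that epithelia also express, was lower (58 reads against 139). The part of B-lineage cells in the rise was not tested.

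The genes with the highest ratios in HFD_CGP were otherwise of many kinds, and at modest levels. Of the 15 protein-coding genes with the highest ratio, 2 had 1000 or more normalized counts. Ptprn2, a phosphatase-like protein of secretory granules (ENSMUSG00000056553, chromosome 12, 116485720 to 117276849), had 4083 and 735 (2.47, interval 2.35 to 2.60). Cebpd, the transcription factor C/EBP delta (ENSMUSG00000071637, chromosome 16, 15887286 to 15891031), had 1063 and 201 (2.40, interval 2.16 to 2.65). Both were far outside the 2-fold limit, and Cebpd also differed from ND, with a log2 ratio of -0.02 in HFD_DMSO against ND and 2.47 in HFD_CGP against ND. Rps6kb2 encodes S6 kinase 2, which phosphorylates ribosomal protein S6 (ENSMUSG00000024830, chromosome 19, 4156713 to 4163354). It had 598 reads in HFD_CGP, 56 in HFD_DMSO and 23 in ND (2.63, interval 2.25 to 3.07). It overlaps Ptprcap on the opposite strand, and the use of strand in counting is not given in the sources used here, so the reads cannot be told apart.

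Others of the 15 act in signalling and modification of proteins. Pik3r2, a regulatory subunit of PI3-kinase, had 141 reads against 8 (3.25) and overlaps another gene on the opposite strand. Asb4, a substrate adaptor of ubiquitin ligases, had 141 against 7 (3.43), and Peli3, a ubiquitin ligase of interleukin-1 signalling, had 349 against 35 (2.53). Sumo2, a ubiquitin-like modifier, had 456 against 54 (2.30) and 1214 in ND. Kcnh1, a voltage-gated potassium channel, had 430 against 48 (2.38), and Hpse, heparanase, had 199 against 21 (2.44). All were called higher in the authors' deposited table. For Peli3 and Kcnh1 the ND library lay nearer to HFD_CGP: Peli3 stood at -1.70 in HFD_DMSO against ND and at 0.92 in HFD_CGP against ND, and Kcnh1 at -1.71 and 0.76.

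Among genes with 1000 or more normalized counts, the others highest in HFD_CGP include a cytokine receptor and genes of G protein signalling. Il1r1, the interleukin-1 receptor that islet cells express strongly (ENSMUSG00000026072, chromosome 1, 40225080 to 40317257), had 6152 and 1662 (1.89, interval 1.80 to 1.97). Gm38070, an unclassified transcript inside Il1r1 on the same strand, had 5774 and 855 (2.75), and reads of the pair cannot be told apart. Gnas, the stimulatory G protein alpha subunit, had 1579 and 450 (1.81), Slc7a14, a relative of the cationic amino acid transporters, had 3010 and 867 (1.79), and Cabp7, a calcium-binding protein, had 2015 and 606 (1.73). Rgs4, which switches off G proteins, had 1003 and 302 (1.73), and Chst11, a sulfotransferase of chondroitin, had 1390 and 447 (1.63). Each lay below its ND level in HFD_DMSO, with log2 ratios there from -3.10 for Il1r1 to -0.92 for Rgs4.

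Islet hormones, transcription factors and receptors differed in both directions. The 8 hormones had 1 at least 2-fold higher and 2 lower, with a median of -0.50 that turns to 0.15 with library totals. Gcg had 140871 normalized counts in HFD_CGP and 60664 in HFD_DMSO (1.22), and it was not called in the authors' deposited table. Sst, somatostatin of delta cells, had 41103 and 54764 (-0.41, which turns positive with library totals). The peptides Pyy and Ppy stood at -0.63 and -0.59, and also turn positive with library totals. Insm1, a transcription factor of endocrine cells, was higher, with 1959 and 724 (1.44, interval 1.30 to 1.57). Of the 18 islet transcription factors 2 were at least 2-fold higher, Insm1 among them, and 0 were lower, where 3.79% of all genes were higher. The median was 0.41 against 0.10 over all genes. With library totals 9 of the 18 were at least 2-fold higher, against 3364 of 11060 over all genes. The median was then 1.06, against 0.75 over all genes. Of 15 islet receptors 4 were at least 2-fold higher and 2 lower, or 7 and 1 with library totals. Glp1r, the target of the incretin GLP-1, had 366 and 103 (1.82, interval 1.48 to 2.19), the orphan Gpr158 had 975 and 391 (1.32) and the calcium sensor Casr 229 and 107 (1.09). Cckar, the cholecystokinin receptor that acinar cells use, was the lowest of them, with 7 reads against 280 (-5.85). Ffar1, a receptor for fatty acids on beta cells, had 1770 and 3563 (-1.01), and was not called in the authors' deposited table. The glucagon receptor Gcgr, the incretin receptor Gipr and the adrenergic receptor Adra2a stood at -0.44, -0.38 and -0.27, each positive with library totals. Ffar1 and these 3 were named after their values were seen. The L-type calcium channel gene Cacna1d had 1754 and 752 (1.22), and the potassium channel Kcnq1 was lower (44.5 and 257, -2.50). Casr and Cacna1d were not called in the authors' deposited table. The insulin genes were the 2 hormones at least 2-fold lower, Ins1 at -1.92 and Ins2 at -1.81, and they share sequence so that their split is uncertain.

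**Figure D4:**
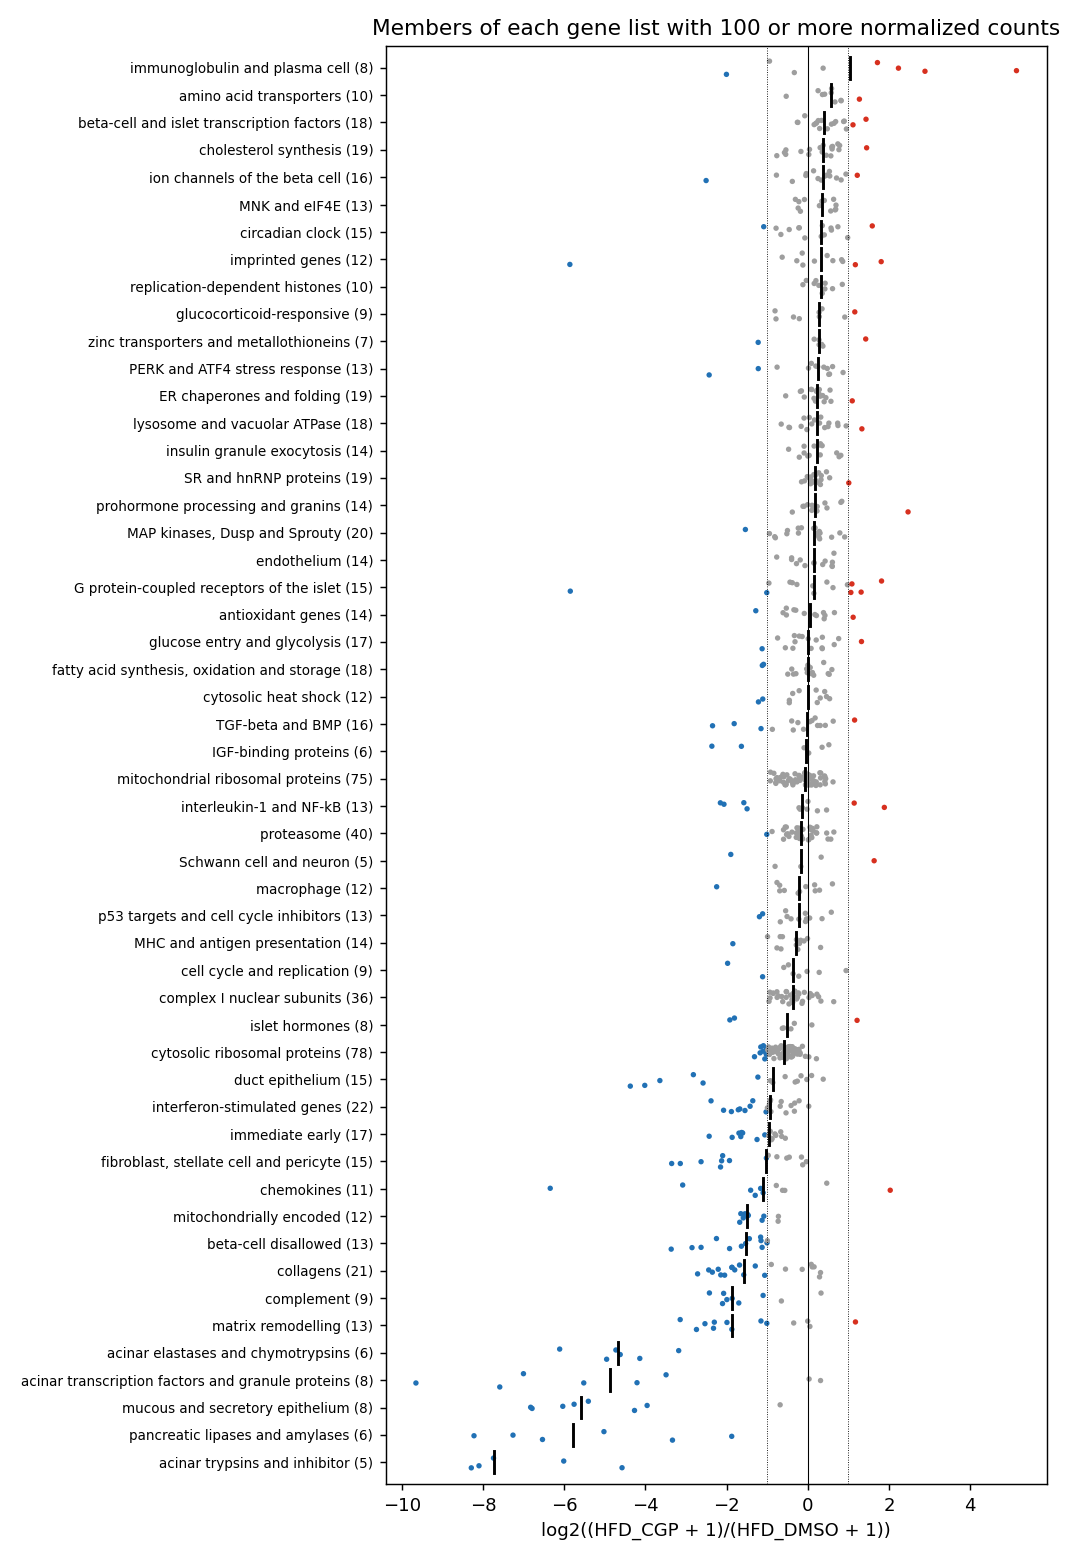
Each row is a gene list with 5 or more members at 100 or more normalized counts, and each point is the log2 ratio of a member. The black bar is the median, and the colours mark members at least 2-fold higher (red) or lower (blue). Medians run from -7.74 for trypsins and their inhibitor to 1.05 for immunoglobulin and plasma cell genes.

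For genes around the target of the compound the count past 2-fold depended on the scaling. All 13 listed MNK and eIF4E genes had 100 or more normalized counts, 0 passed 2-fold in either direction, and 0 were called in the authors' deposited table. Over all genes 3.79% were at least 2-fold higher and 6.11% lower, so that 0 among 13 is no result about these genes. Their median was 0.35, against 0.10 over all genes. With library totals it was 1.00, against 0.75 over all genes. By that scaling 6 of the 13 were at least 2-fold higher, against 3364 of 11060 over all genes. Eif4e itself had 900.5 and 555 (0.70), the scaffold Eif4g1 had 4088 and 2557 (0.68), and the repressor Eif4ebp1 had 1101 and 682 (0.69). Mknk1 had 1110 and 836 (0.41) and Mknk2 had 825 and 971 (-0.24, which turns positive with library totals). These are transcript levels and say nothing of the phosphorylation of eIF4E. Of 20 MAP kinases, Dusp and Sprouty genes, which act upstream, only Map2k6, an activator of p38, was at least 2-fold lower (49 reads against 85, -1.54). That 1 of 20 is near the 6.11% over all genes, so it is no result about this list.

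Immediate early genes, which respond within minutes to stimuli and to tissue handling, were lower. Of 17 measured all lay below 0, 8 were at least 2-fold lower, and 7 of these were called in the authors' deposited table. The median was -0.96, or -0.31 with library totals. Over all genes with 100 or more normalized counts 6.11% were at least 2-fold lower and 4.16% were called lower. Fosb, an AP-1 subunit (ENSMUSG00000003545, chromosome 7, 19302696 to 19310051), had 4845 and 15201 (-1.65, interval -1.69 to -1.61), Atf3, a stress-induced transcription factor, had 586 and 3159 (-2.43), and Ier2 had 955 and 3094 (-1.69). ND lay nearer to HFD_CGP for these genes: against ND the log2 ratios of Fosb, Atf3 and Ier2 were -0.21, 0.17 and 0.77 in HFD_CGP and 1.35, 2.51 and 2.37 in HFD_DMSO. Of the stress lists, ER chaperones had a median of 0.24, with Hyou1 at 6278 and 2935 normalized counts and Hspa5 at 20157 and 29375. The 12 cytosolic heat shock genes had a median of -0.002, with 6 above 0 and 6 below. Among them Hsp90aa1 stood at 0.54, Dnajb1 at -1.21 and Hspa1a at -1.11, none called in the authors' deposited table. With library totals the median of the heat shock list was 0.65 and 0 were at least 2-fold lower.

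Transcripts of mitochondria and ribosomal RNA were lower together. Of 12 mitochondrially encoded protein genes with 100 or more normalized counts, 10 were at least 2-fold lower, 8 of them called in the authors' deposited table, and the median was -1.49. With library totals the median was -0.84 and only mt-Nd6, a complex I subunit, stayed at least 2-fold lower. mt-Nd1, a subunit of complex I, had 44459 and 139395 (-1.65), and the ribosomal RNAs mt-Rnr1 and mt-Rnr2 stood at -1.93 and -1.96. The nuclear ribosomal RNA fragment CT010467.1 had 59089 and 211999 (-1.84). Lars2, the mitochondrial leucyl-tRNA synthetase (ENSMUSG00000035202, chromosome 9, 123366927 to 123462666), had 2442 and 52116 (-4.41), and Gm23935 had 7155 and 134650 (-4.23). Against ND, Lars2 and Gm23935 stood at 4.35 and 4.48 in HFD_DMSO and at 0.03 and 0.34 in HFD_CGP. The nuclear-encoded subunits of complex I had 0 of 36 past 2-fold and a median of -0.36, which turns to 0.29 with library totals. Mitochondrial ribosomal proteins had 0 of 75 past it and a median of -0.06. Over all genes 3.79% were at least 2-fold higher and 6.11% lower. With library totals the median of the mitochondrial ribosomal proteins was 0.59, against 0.75 over all genes. By that scaling 6 of the 75 were at least 2-fold higher, against 3364 of 11060 over all genes.

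The counts of metabolic genes past 2-fold also depended on the scaling, as the count over all genes did. The 10 amino acid transporters had 1 at least 2-fold higher and a median of 0.58, against 8 and 1.24 with library totals, with Slc7a5, the exchanger that brings in leucine, at 1.27 (1747 and 722). The 19 genes of cholesterol synthesis had 1 at least 2-fold higher and a median of 0.38, against 11 and 1.03 with library totals. Over all genes 3.79% were at least 2-fold higher and the median was 0.10. With library totals these were 3364 of 11060 genes and 0.75. In glycolysis Pgam1, phosphoglycerate mutase, stood at 1.32 and Ldha, lactate dehydrogenase, at -1.12, the latter not called in the authors' deposited table. The proton pump subunit Atp6v0c had 1050 and 416 (1.33) and the zinc transporter Slc39a7, of the early secretory pathway, had 268 and 99.1 (1.43). The clock factor Npas2 had 146 reads against 28 (1.59), and Dbp, an output of the clock, stood at -1.08. Of the 13 genes kept low in beta cells, 12 were at least 2-fold lower, against 6.11% of all genes. The authors' deposited table called 8 of these lower, against 4.16% of all genes with 100 or more normalized counts. With library totals 5 of the 13 were at least 2-fold lower. They include Mgst1, a glutathione transferase (55.2 and 578, -3.36), and Tgm2, a transglutaminase (116 and 554, -2.25). Many of these genes are also expressed by stromal and acinar cells, whose markers differed as given above, and their part was not tested.

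Some other single genes stood out in the lower direction. Clu, a secreted chaperone, had 2094 and 12600 (-2.59, interval -2.65 to -2.53). H19, an imprinted non-coding RNA, had 1 read against 77 (-5.86, interval -12.35 to -4.51). Igf1, the growth factor, had 62.1 and 323 (-2.36) and Id2, an inhibitor of differentiation factors, 156 and 795 (-2.35). Mki67, a marker of dividing cells, had 38 reads against 90 (-1.97), with 145 in ND. Its list of cell cycle and replication genes differed less. Of 9 members with 100 or more normalized counts, 2 were at least 2-fold lower and 0 higher. The median of that list was -0.36, which turns to 0.29 with library totals.

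The ratio also followed the length and base composition of genes. In the shortest of 10 equal bins of genes the median log2 ratio was -0.30, in the longest 0.28, and the Spearman correlation with length across 11060 genes was 0.27. In the bin with the lowest transcript GC content the median was 0.20, in the highest -0.08, and the correlation was -0.17 across 11052 genes. Genes are not independent replicates, and the points share 2 libraries. The 419 higher genes had a median length of 4348 bases and the 676 lower genes 3220, against 4412 over all. Centring the ratio on GC content left 446 genes at least 2-fold higher and 667 lower.

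**Figure D5:**
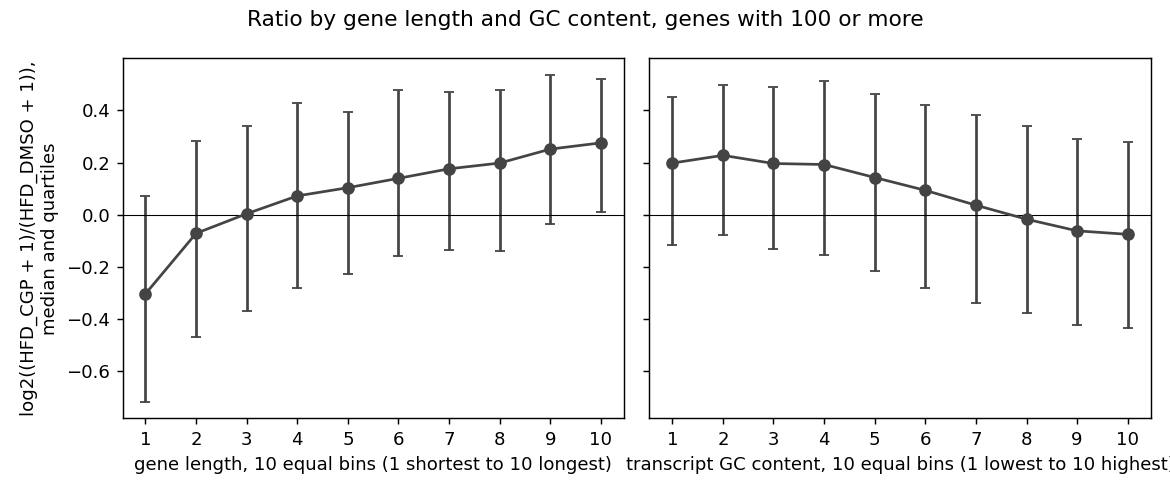
Points are medians and bars quartiles of the log2 ratio in 10 equal bins of genes with 100 or more normalized counts, by gene length and by transcript GC content. The median runs from -0.30 in the shortest to 0.28 in the longest bin and from 0.20 in the lowest to -0.08 in the highest GC bin.

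The lists covered a small part of the differences. Of the 676 lower genes 168 (24.9%) were in any of the 57 lists, with 30 in the acinar, lipase and Reg lists, 13 in the duct and mucous lists, 30 in the stromal and matrix lists and 31 in the immune lists. Of the 419 higher genes 31 (7.40%) were in any list, and over all 11060 genes 856 (7.74%) were. The lists were chosen with the direction of several of them known, so these shares describe the lists.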

How the data were processed

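RNA was extracted from islets with Trizol and TruSeq libraries were made, per the labels' protocols. The authors deposited a table per pair of groups with a signal column per library, which holds read counts divided by a factor per library. The deposited log2 column gives the authors' fold change and the deposited p-value columns their raw and adjusted p. The submitters' processing notes name DESeq2 1.10.1. For the aligner, counter, genome build and strand setting, each is not given in the sources used here. Coordinates in the deposited tables were on GRCm38, as found by comparison with GENCODE M21.

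Whole read counts were recovered from the deposited signal: to a tolerance of 0.1 read, 99.6% of the HFD_CGP values and 99.8% of the HFD_DMSO values were whole, and below 1000 reads 100% were. 1 read was worth 0.767 normalized counts in HFD_CGP and 1.30 in HFD_DMSO. The deposited calls were matched by the exact test of edgeR 4.0.16 on these reads with a fixed dispersion of 0.04: the 311 higher and 1100 lower calls were the same 1411 genes. That setting was found by recomputation.

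Log2 ratios used a pseudocount of 1 and a minimum of 100 in the higher library. With 1 library a side, no test with an estimated spread could be made; edgeR's exact test was run only with assumed dispersions of 0.04 and 0.16. Levels were compared within a table. The genes, lists and tests were chosen with earlier results of these data known. Genes named were the protein-coding genes with the 15 highest and 15 lowest ratios at 100 or more normalized counts, the 8 at 1000 or more and the 5 at 10000 or more; the 3 highest and 3 lowest of each non-coding type; up to 4 members of each list; and 8 fixed genes. Alternatives were other pseudocounts, scalings, minimums, a 4-fold limit, a GC-centred ratio and another dispersion. Values of some list members are not reported here.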

Additional observations from a re-analysis of the deposited data

How the results depend on the processing

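Against 419 genes at least 2-fold higher, 676 lower and a median log2 ratio of 0.10, library totals gave 3364, 343 and 0.75. A minimum of 20 gave 817 and 1639, one of 1000 gave 70 and 114, and no minimum 3267 and 3936. A 4-fold limit gave 31 and 245. The authors' deposited table called 311 higher and 1100 lower, and edgeR with a dispersion of 0.16 called 9 and 162. The shift of library totals, 0.65, follows from its construction; the cause of the others is the limit or minimum itself. Pseudocounts of 10 and 0.1, the median ratio, totals without the 50 most abundant genes and GC centring kept the 2-fold counts within 368 to 446 higher and 629 to 680 lower. Of 203 named genes past 2-fold, 62 higher and 141 lower, 62 and 105 stayed past it with library totals, and 0 reversed. With library totals the medians of 15 of 57 lists changed sign, with GC centring 3. No paired analysis was possible because each group has 1 library. With 1 library a side no replicate could be left out.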

Other observations

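Non-coding transcripts differed by type. Of 153 processed pseudogenes with 100 or more normalized counts 23 were at least 2-fold lower and 10 higher, of 69 antisense transcripts 11 and 5, and of 32 unclassified transcripts 13 and 4. Of 90 long intergenic transcripts 7 were lower and 9 higher. Protein-coding genes had 596 of 10573 lower (5.64%) and 383 higher (3.62%). Gm44799, an unclassified transcript inside Fam155a, had 44 reads in HFD_CGP, 311 in HFD_DMSO and 8 in ND (-3.55). Gm24270, inside Peak1, had 108, 1530 and 86 reads (-4.57). The 3 mitochondrial tRNA genes that reached the level ran from -2.04 for mt-Tc to -1.62 for mt-Tp. Among transcripts higher in HFD_CGP, the long non-coding RNA Gm27000 had 223 reads against 23 (2.47) and the pseudogene transcript Gm12346 had 295 against 28 (2.60). Haemoglobin genes, which mark red blood cells, were lower, with Hba-a2 at -2.04 and Hbb-bs at -0.74.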
